A study of Mus musculus with 12 samples.

Results

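The 10 genes described here encode enzymes that cut or cross-link the extracellular matrix and inhibitors of the cutting enzymes: the matrix metalloproteinases Mmp2, Mmp3, Mmp10, Mmp13 and Mmp14, the tissue inhibitors Timp2 and Timp3, and the lysyl oxidases Lox, Loxl1 and Loxl2. They were chosen by name, with earlier results of these data known. Each was read from the probe set that the array annotation assigns to it, taking the brightest where there were several. Of the 10 genes, 9 had a probe set of their own, among 19938 genes with one. The only probe set for Loxl2 is listed for Gm21451 as well, so it is called Gm21451/Loxl2 here and its signal cannot be assigned to either gene. With it, 10 probe sets are described.

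The series holds 12 Affymetrix arrays of 4 mouse induced pluripotent stem cell lines, with 3 biological repeats (cultures) per line. LiPS-50 and LiPS-47 are labelled as without tetraploid embryo complementation competence, and LiPS-45 and LiPS-57 as with it. In that assay the tested cells are put into a tetraploid host embryo, whose own cells contribute mainly to extraembryonic tissue, and competence means that the tested cells can form the animal. All 4 lines came from embryonic fibroblasts of the strain C57BL/6J, were reprogrammed with 3 factors and grew in embryonic stem cell medium. The labels name neither the factors nor any feeder cells, and they do not say whether a line is 1 clone.

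Matrix metalloproteinases are zinc-dependent enzymes made as inactive precursors; most are secreted, and some, such as Mmp14, sit in the cell membrane. Tissue inhibitors of metalloproteinases bind the active site of these enzymes, and Timp2 also takes part in the activation of the Mmp2 precursor by Mmp14 at the cell surface. Lysyl oxidases are secreted copper enzymes that oxidise lysines of collagen and elastin, which lets the fibres cross-link. Fibroblasts and other mesenchymal cells are known as rich sources of many of these proteins.

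Promoter windows of 250 bases before the annotated start are printed or described for 6 of the 10 genes, from RefSeq on the build GRCm38.p6. Mmp3, Mmp10 and Mmp13 belong to a cluster of metalloproteinase genes on chromosome 9, and their windows are shown because they share short motifs that the window of the inhibitor Timp2 lacks. Each is printed 5′ to 3′ on the strand of the gene, with the motif matches in capitals. The windows lie at chr9:7445572-7445821 (Mmp3, plus strand), chr9:7502092-7502341 (Mmp10, plus strand), chr9:7272264-7272513 (Mmp13, plus strand) and chr11:118355412-118355661 (Timp2, minus strand).
Mmp3: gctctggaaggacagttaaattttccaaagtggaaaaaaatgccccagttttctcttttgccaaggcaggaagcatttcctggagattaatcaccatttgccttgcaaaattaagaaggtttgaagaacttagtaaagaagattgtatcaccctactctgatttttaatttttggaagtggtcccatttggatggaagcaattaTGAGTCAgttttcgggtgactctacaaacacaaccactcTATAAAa
Mmp10: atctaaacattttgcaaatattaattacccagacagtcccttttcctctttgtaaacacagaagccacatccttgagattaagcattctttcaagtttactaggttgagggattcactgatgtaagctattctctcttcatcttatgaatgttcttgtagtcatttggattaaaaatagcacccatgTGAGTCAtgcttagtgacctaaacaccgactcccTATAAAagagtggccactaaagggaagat
Mmp13: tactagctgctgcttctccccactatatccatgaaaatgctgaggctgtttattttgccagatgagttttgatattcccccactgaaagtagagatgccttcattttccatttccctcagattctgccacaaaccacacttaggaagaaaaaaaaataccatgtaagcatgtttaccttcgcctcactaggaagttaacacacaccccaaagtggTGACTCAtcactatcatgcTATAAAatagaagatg
Timp2: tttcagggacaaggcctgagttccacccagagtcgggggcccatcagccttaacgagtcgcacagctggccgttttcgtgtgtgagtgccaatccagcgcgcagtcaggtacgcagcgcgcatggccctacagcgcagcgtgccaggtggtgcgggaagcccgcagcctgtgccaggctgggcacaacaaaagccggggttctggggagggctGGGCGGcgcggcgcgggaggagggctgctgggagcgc

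In the Mmp3, Mmp10 and Mmp13 windows the capitals mark 1 match each to TGANTCA, the letters bound by the AP-1 family of transcription factors, and 1 match each to TATAAA, the TATA box. The TGANTCA match begins 46 bases before the start of Mmp3, 63 before that of Mmp10 and 35 before that of Mmp13. The TATAAA match begins 7 bases before the start of Mmp3, 29 before that of Mmp10 and 16 before that of Mmp13. Whether these TATAAA matches act as TATA boxes was not tested. In the Timp2 window the capitals mark GGGCGG, the GC box. Searched on both strands, TGANTCA occurred in 6.75% of all 32851 windows of this length, TATAAA in 12.4% and GGGCGG in 32.7%. The windows of Mmp14 and Timp3, like that of Timp2, held no match to TGANTCA or TATAAA, and held 2 and 1 matches to GGGCGG. The matches did not overlap one another. The windows of Mmp3, Mmp10 and Mmp13 held 1 CpG each, whereas those of Mmp14, Timp2 and Timp3 held 10, 21 and 18, against a median of 6 over all windows. No window is described here for Mmp2, Lox, Loxl1 or Loxl2, so these motif and CpG counts do not cover those genes. The matches describe letters only, and binding was not measured.

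LiPS-50 had the highest signal for all 10 probe sets. In each comparison of LiPS-50 with another line, 9 of the 10 were higher in LiPS-50 at an adjusted p under 0.05 and none was lower. These calls came from limma on log2(intensity + 1), adjusted by the Benjamini-Hochberg method over 28939 probe sets. Over all tested probe sets, 8.48% were higher in LiPS-50 than LiPS-47, 8.18% than LiPS-45 and 8.16% than LiPS-57. The median difference of the 10 was 0.84 log2 units against LiPS-47, 0.66 against LiPS-45 and 0.64 against LiPS-57, where the medians over all tested probe sets were -0.014, 0.00024 and -0.00019. All 3 LiPS-50 arrays lay above all 9 other arrays for 10 of the 10 probe sets, and for 8.81% of all tested probe sets. Because the 10 genes were chosen with earlier results of these data known, these counts cannot serve as a test of the list. The 3 comparisons share the LiPS-50 arrays, so they are not independent of each other, and a probe set has the same SE in all 3.

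**Figure D1:**
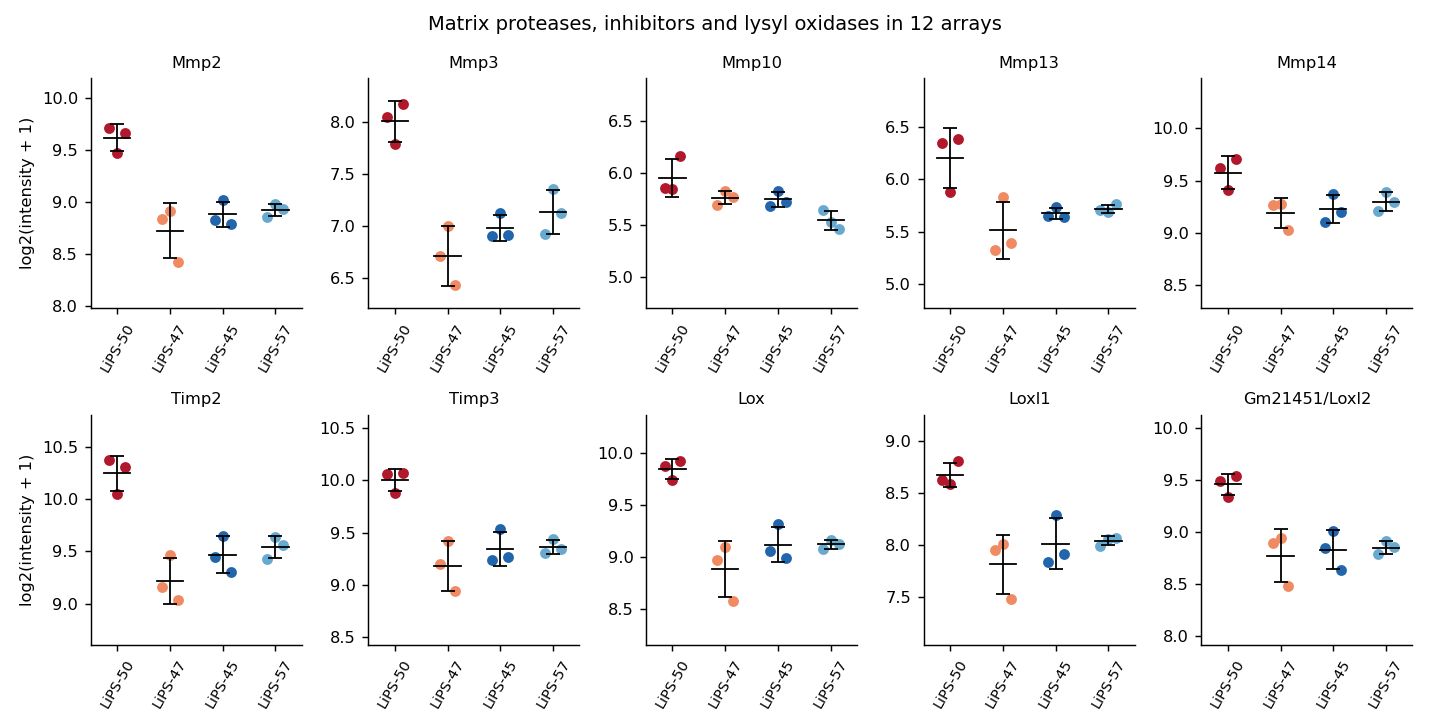
Each panel shows 1 probe set, with log2(intensity + 1) on the vertical axis and the lines LiPS-50, LiPS-47, LiPS-45 and LiPS-57 along the horizontal axis; points are the 3 cultures, and bars are the mean and the SD. Every panel spans the same height on the log2 scale, and the 3 LiPS-50 points lie above the 9 others in all 10 panels, by the least for Mmp10 (5.84 against 5.83), Mmp14 (9.41 against 9.39) and Mmp13 (5.88 against 5.83).

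Among the gelatinases and their activators, Mmp2, which digests gelatin and type IV collagen, had log2 intensities of 9.71, 9.47 and 9.67 in LiPS-50, against 8.83, 8.92 and 8.42 in LiPS-47, 8.83, 9.02 and 8.79 in LiPS-45, and 8.86, 8.98 and 8.93 in LiPS-57. All LiPS-50 cultures were above every other culture, and the other 3 lines overlapped. Mmp2 was 1.85-fold higher in LiPS-50 than LiPS-47 (log2 difference 0.89, SE 0.118, limma adjusted p = 3.24e-04), 1.66-fold higher than LiPS-45 (adjusted p = 0.00126) and 1.61-fold higher than LiPS-57 (adjusted p = 0.00194).

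Mmp14, the membrane enzyme that activates the Mmp2 precursor, had log2 intensities of 9.62, 9.41 and 9.71 in LiPS-50, against 9.27, 9.27 and 9.03 in LiPS-47, 9.11, 9.37 and 9.20 in LiPS-45, and 9.21, 9.39 and 9.29 in LiPS-57. The lowest LiPS-50 culture stood just above the highest cultures of LiPS-45 and LiPS-57. Mmp14 was 1.31-fold higher in LiPS-50 than LiPS-47 (log2 difference 0.39, SE 0.101, limma adjusted p = 0.0195) and 1.28-fold higher than LiPS-45 (adjusted p = 0.0322). Against LiPS-57 the difference of 0.28 (95% interval 0.059 to 0.50) missed the threshold (adjusted p = 0.0873). These calls hang on single cultures: against LiPS-47 the adjusted p was 0.0660 without LiPS-50 replicate 1, 0.0820 without LiPS-50 replicate 3 and 0.0827 without LiPS-47 replicate 3. Against LiPS-45 it was 0.0933 without LiPS-50 replicate 1, 0.119 without LiPS-50 replicate 3, 0.113 without LiPS-45 replicate 1 and 0.0977 without LiPS-45 replicate 3, while against LiPS-57 it was 0.0388 without LiPS-50 replicate 2.

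Of the 3 enzymes encoded in the cluster on chromosome 9, Mmp3 (stromelysin 1, with broad matrix substrates) had the greatest difference. Its log2 intensities were 8.05, 7.79 and 8.18 in LiPS-50, against 6.71, 7.00 and 6.44 in LiPS-47, 6.90, 7.13 and 6.92 in LiPS-45, and 6.93, 7.36 and 7.12 in LiPS-57. The LiPS-50 cultures were separated by a clear gap from all others, and the LiPS-47 cultures held the lowest value. Mmp3 was 2.44-fold higher in LiPS-50 than LiPS-47 (log2 difference 1.29, SE 0.150, limma adjusted p = 1.26e-04), 2.03-fold higher than LiPS-45 (adjusted p = 6.65e-04) and 1.83-fold higher than LiPS-57 (adjusted p = 0.00207).

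Mmp13, a collagenase of fibrillar collagens, had log2 intensities of 6.35, 5.88 and 6.39 in LiPS-50, against 5.33, 5.83 and 5.39 in LiPS-47, 5.65, 5.74 and 5.64 in LiPS-45, and 5.71, 5.69 and 5.76 in LiPS-57. The second LiPS-50 culture was close to the highest cultures of the other lines, and the remaining pair stood above them. Mmp13 was 1.61-fold higher in LiPS-50 than LiPS-47 (log2 difference 0.69, SE 0.142, limma adjusted p = 0.00521), 1.45-fold higher than LiPS-45 (adjusted p = 0.0231) and by 0.49 log2 units higher than LiPS-57 (adjusted p = 0.0363). Against LiPS-45 the adjusted p was 0.0881 without LiPS-50 replicate 1, 0.0896 without LiPS-50 replicate 3, 0.0629 without LiPS-45 replicate 1 and 0.0752 without LiPS-45 replicate 3. Against LiPS-57 it was 0.133 without LiPS-50 replicate 1, 0.134 without LiPS-50 replicate 3, and 0.0940, 0.0986 and 0.0733 without LiPS-57 replicates 1, 2 and 3.

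Mmp10 (stromelysin 2) had log2 intensities of 5.85, 5.84 and 6.16 in LiPS-50, against 5.70, 5.83 and 5.76 in LiPS-47, 5.68, 5.83 and 5.72 in LiPS-45, and 5.64, 5.53 and 5.46 in LiPS-57. LiPS-57 was the lowest line for this gene alone among the 10, and a pair of LiPS-50 cultures lay next to the highest LiPS-47 and LiPS-45 cultures. Mmp10 was 1.33-fold higher in LiPS-50 than LiPS-57 (log2 difference 0.41, SE 0.0887, limma adjusted p = 0.00829). Its difference from LiPS-47 was 0.19 (95% interval -0.0056 to 0.38, adjusted p = 0.199) and from LiPS-45 0.21 (0.012 to 0.40, adjusted p = 0.149), and neither passed the threshold. Without LiPS-50 replicate 3 these differences were 0.0841 and 0.102.

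The gene cluster that holds Mmp3, Mmp10 and Mmp13 runs in the order Mmp13, Mmp12, Mmp1b, Mmp3, Mmp1a, Mmp10, Mmp8, Mmp27, Mmp20 and Mmp7 in RefSeq. All 10 genes had a probe set of their own. Mmp13 and Mmp3, 2 of these 10, were higher in LiPS-50 than LiPS-47 by limma, beside 8.48% of all tested probe sets. Both are among the genes chosen for description here. The means of Mmp3, Mmp10 and Mmp13 over the 12 arrays (7.21, 5.75 and 5.78) lay above the 40th percentile of all tested probe sets, 5.21, whereas those of the other 7 genes, 3.21 to 4.85, lay below it. A change in those dim genes might not be detectable on these arrays.

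**Figure D2:**
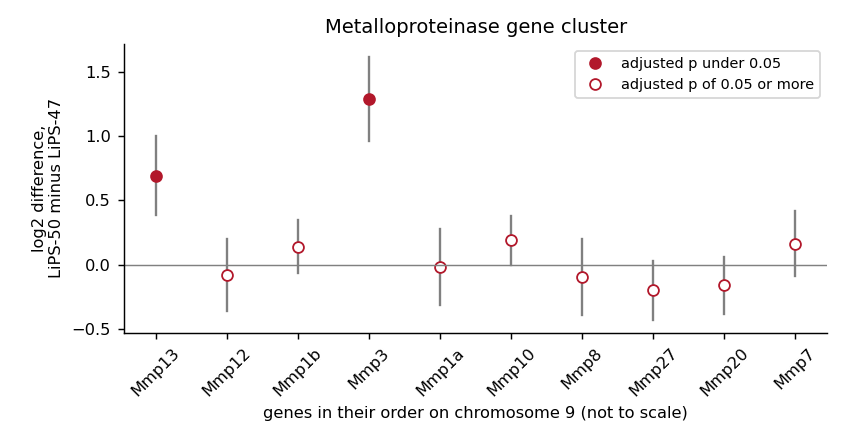
The 10 metalloproteinase genes of the chromosome 9 cluster run along the horizontal axis in genomic order, not to scale, and the vertical axis gives the log2 difference of LiPS-50 minus LiPS-47 with its 95% interval; filled points have a limma adjusted p under 0.05. Mmp13 (0.69) and Mmp3 (1.29) are filled, Mmp10 is open at 0.19, and the other 7 genes lie between -0.20 and 0.16.

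Both inhibitors were higher in LiPS-50 as well. Timp2 had log2 intensities of 10.38, 10.05 and 10.31 in LiPS-50, against 9.16, 9.46 and 9.03 in LiPS-47, 9.45, 9.65 and 9.30 in LiPS-45, and 9.42, 9.64 and 9.56 in LiPS-57. The LiPS-50 cultures did not overlap with those of any other line. Timp2 was 2.04-fold higher in LiPS-50 than LiPS-47 (log2 difference 1.03, SE 0.125, limma adjusted p = 1.81e-04), 1.72-fold higher than LiPS-45 (adjusted p = 0.00126) and 1.63-fold higher than LiPS-57 (adjusted p = 0.00247).

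Timp3, an inhibitor that stays bound to the matrix, had log2 intensities of 10.06, 9.88 and 10.07 in LiPS-50, against 9.20, 9.42 and 8.94 in LiPS-47, 9.24, 9.53 and 9.26 in LiPS-45, and 9.30, 9.44 and 9.34 in LiPS-57. LiPS-50 again stood apart, and the other lines overlapped. Timp3 was 1.77-fold higher in LiPS-50 than LiPS-47 (log2 difference 0.82, SE 0.116, limma adjusted p = 4.77e-04), 1.58-fold higher than LiPS-45 (adjusted p = 0.00218) and 1.56-fold higher than LiPS-57 (adjusted p = 0.00262).

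Of the cross-linking enzymes, Lox, which acts on fibrillar collagens and elastin, had log2 intensities of 9.87, 9.73 and 9.92 in LiPS-50, against 8.97, 9.09 and 8.58 in LiPS-47, 9.06, 9.31 and 8.99 in LiPS-45, and 9.08, 9.17 and 9.12 in LiPS-57. The LiPS-50 cultures were close together and above the rest. Lox was 1.94-fold higher in LiPS-50 than LiPS-47 (log2 difference 0.96, SE 0.121, limma adjusted p = 2.32e-04), 1.65-fold higher than LiPS-45 (adjusted p = 0.00170) and 1.65-fold higher than LiPS-57 (adjusted p = 0.00181).

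Loxl1, known for its part in the renewal of elastic fibres, had log2 intensities of 8.63, 8.59 and 8.80 in LiPS-50, against 7.95, 8.01 and 7.49 in LiPS-47, 7.84, 8.29 and 7.92 in LiPS-45, and 7.99, 8.06 and 8.07 in LiPS-57. Its LiPS-50 cultures lay above all others, and the third LiPS-47 culture lay below them all. Loxl1 was 1.81-fold higher in LiPS-50 than LiPS-47 (log2 difference 0.86, SE 0.139, limma adjusted p = 0.00121), 1.58-fold higher than LiPS-45 (adjusted p = 0.00678) and 1.55-fold higher than LiPS-57 (adjusted p = 0.00900).

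The shared probe set Gm21451/Loxl2 had log2 intensities of 9.49, 9.34 and 9.54 in LiPS-50, against 8.90, 8.94 and 8.48 in LiPS-47, 8.84, 9.01 and 8.64 in LiPS-45, and 8.78, 8.91 and 8.86 in LiPS-57. As for Lox and Loxl1, the LiPS-50 cultures lay above all others. Its signal was 1.60-fold higher in LiPS-50 than LiPS-47 (log2 difference 0.68, SE 0.123, limma adjusted p = 0.00229), 1.54-fold higher than LiPS-45 (adjusted p = 0.00437) and 1.52-fold higher than LiPS-57 (adjusted p = 0.00562). Loxl2 itself is a lysyl oxidase that cross-links type IV collagen of basement membranes.

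**Figure D3:**
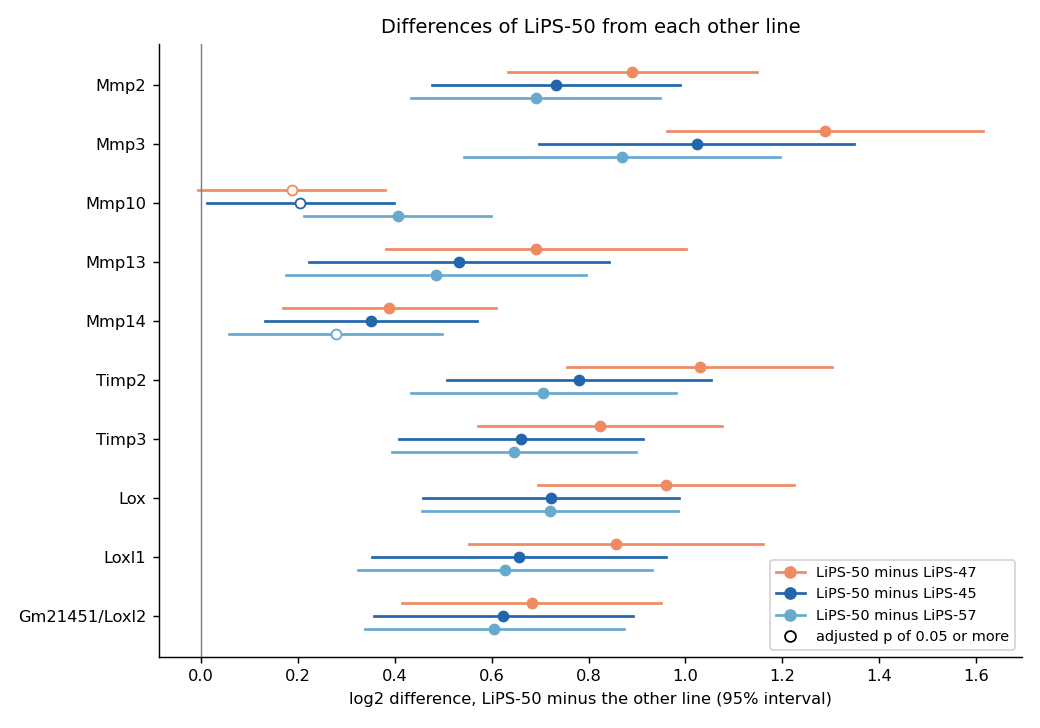
For each of the 10 probe sets, points give the log2 difference of LiPS-50 minus LiPS-47, LiPS-45 and LiPS-57 on the horizontal axis, with 95% intervals from the fit; open points have a limma adjusted p of 0.05 or more. All 30 points lie to the right of 0, from 0.19 for Mmp10 to 1.29 for Mmp3, and the 3 open ones are Mmp10 against LiPS-47 and LiPS-45, and Mmp14 against LiPS-57.

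Among the 17 other metalloproteinases measured, 2 were higher and 1 was lower in LiPS-50 than LiPS-47, 14 were not called, and the median difference was 0.042. Against LiPS-45 and LiPS-57 the counts were again 2 higher and 1 lower, with medians of 0.067 and 0.042. Among all tested probe sets, 8.48% were higher and 7.31% lower in LiPS-50 than LiPS-47. The shares were 8.18% and 8.3% against LiPS-45, and 8.16% and 7.48% against LiPS-57. Mmp19 averaged 6.87 in LiPS-50, 5.90 in LiPS-47, 6.14 in LiPS-45 and 6.23 in LiPS-57, and was higher in LiPS-50 than LiPS-47 by 0.96 log2 units (SE 0.174, limma adjusted p = 0.00232). Mmp23 was higher by 0.47 (SE 0.0894, adjusted p = 0.00332). Mmp25, a metalloproteinase anchored in the membrane, ran the other way: it averaged 7.72 in LiPS-50, 8.26 in LiPS-47, 8.18 in LiPS-45 and 8.08 in LiPS-57, a difference of -0.53 between LiPS-50 and LiPS-47 (SE 0.0624, adjusted p = 1.35e-04).

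Of the 5 other inhibitors and lysyl oxidases, 4 were higher in LiPS-50 than in each other line and none was lower, with a median difference of 0.33 in all 3 comparisons. Loxl3 averaged 9.10 in LiPS-50, 8.27 in LiPS-47, 8.47 in LiPS-45 and 8.37 in LiPS-57, a difference of 0.83 between LiPS-50 and LiPS-47 (SE 0.122, limma adjusted p = 6.63e-04). Timp1, a soluble inhibitor, differed by 0.66 (SE 0.115, adjusted p = 0.00180), and Reck, a membrane-anchored inhibitor, by 0.33 (SE 0.0772, adjusted p = 0.0114). The exception was Timp4, which differed by -0.030 (adjusted p = 0.857).

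Plasmin, made from plasminogen by the activators Plau and Plat, can cleave the precursors of some metalloproteinases. Of 5 genes of plasminogen activation measured, 2 were higher in LiPS-50 than LiPS-47, 2 than LiPS-45 and 3 than LiPS-57, and none was lower. Plau averaged 8.22 in LiPS-50, 7.47 in LiPS-47, 7.56 in LiPS-45 and 7.53 in LiPS-57, a difference of 0.75 between LiPS-50 and LiPS-47 (SE 0.132, limma adjusted p = 0.00195). Plat differed by 0.76 (SE 0.141, adjusted p = 0.00280). The gene higher against LiPS-57 alone was Plaur, the receptor for the product of Plau, with differences of 0.18 from LiPS-47 (adjusted p = 0.274), 0.31 from LiPS-45 (adjusted p = 0.0531) and 0.41 from LiPS-57 (adjusted p = 0.0150).

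Of 16 genes for the assembly of collagen and elastic fibres, 10 were higher in LiPS-50 than LiPS-47, 11 than LiPS-45 and 10 than LiPS-57, and none was lower. The medians of the list were 0.37, 0.37 and 0.41 log2 units. Mfap2, a protein of the microfibrils on which elastin is laid down, differed by 0.65 between LiPS-50 and LiPS-47 (SE 0.0808, limma adjusted p = 2.15e-04). The microfibril protein Fbn2 differed by 0.61 (SE 0.0926, adjusted p = 8.16e-04). Pcolce, which enhances the trimming of procollagen, averaged 10.35 in LiPS-50, 9.67 in LiPS-47, 9.75 in LiPS-45 and 9.85 in LiPS-57, a difference of 0.68 between LiPS-50 and LiPS-47 (SE 0.114, adjusted p = 0.00144).

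**Figure D4:**
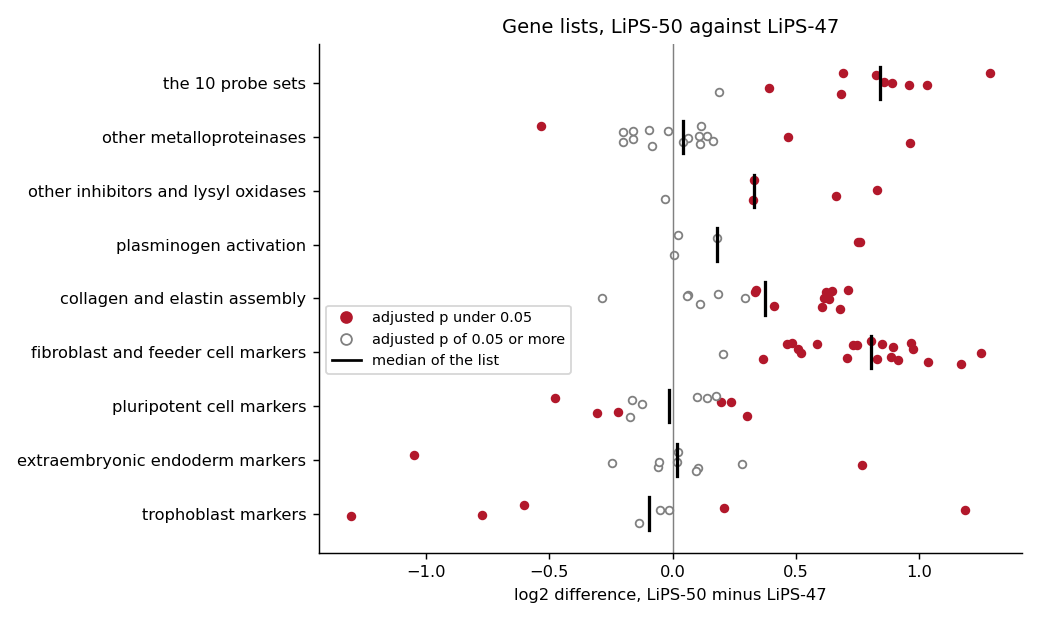
Each point is a gene of the list named at the left, placed by its log2 difference of LiPS-50 minus LiPS-47; red points have a limma adjusted p under 0.05, and the black bar is the median of the list. The medians are 0.84 for the 10 probe sets, 0.80 for 21 fibroblast and feeder cell markers, 0.37 for collagen and elastin assembly and 0.042 for other metalloproteinases, and those of the pluripotent, endoderm and trophoblast markers lie at -0.013, 0.019 and -0.095.

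Markers of fibroblasts and feeder cells moved with these genes. Of 21 such markers, 20 were higher in LiPS-50 than LiPS-47, 20 than LiPS-45 and 19 than LiPS-57, and none was lower, with medians of 0.80, 0.63 and 0.62 log2 units. Their summed intensity was 29533 to 33287 in LiPS-50, against 18545 to 22922 in LiPS-47, 21619 to 25446 in LiPS-45 and 21812 to 23329 in LiPS-57. Pdgfra, a growth factor receptor of mesenchymal cells, averaged 8.61 in LiPS-50, 7.36 in LiPS-47, 7.61 in LiPS-45 and 7.50 in LiPS-57. The collagen gene Col3a1 was higher in LiPS-50 than LiPS-47 by 1.04 (SE 0.114, limma adjusted p = 8.58e-05), and the proteoglycan gene Dcn by 1.17 (SE 0.150, adjusted p = 2.65e-04). No marker was at 0: 20 of the 21 lay above the 40th percentile of all tested probe sets in LiPS-50 and 19 of 21 in each other line. The dimmest, Fap, averaged 4.74 in LiPS-50, 4.22 in LiPS-47, 4.39 in LiPS-45 and 4.42 in LiPS-57. In RNA from a whole culture, fewer cells of a type and less RNA per cell cannot be told apart. The part of such cells in the differences of the 10 probe sets was not tested.

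All 12 markers of pluripotent cells lay above the 40th percentile in every line. Their summed intensity was 22556 to 23080 in LiPS-50, against 22853 to 23356 in LiPS-47, 22913 to 23683 in LiPS-45 and 23560 to 23978 in LiPS-57. Between LiPS-50 and LiPS-47, 3 were higher and 3 lower; against LiPS-45 the counts were 2 and 5, and against LiPS-57 2 and 4. Pou5f1 averaged 11.56 in LiPS-50, 11.69 in LiPS-47, 11.74 in LiPS-45 and 11.72 in LiPS-57, and it was lower in LiPS-50 than LiPS-45 by limma (difference -0.18, adjusted p = 0.0359), while its differences from LiPS-47 (-0.13, adjusted p = 0.146) and LiPS-57 (-0.16, adjusted p = 0.0605) missed the threshold. Lin28a, an RNA-binding protein of pluripotent cells, differed by -0.48 (SE 0.0497, adjusted p = 5.74e-05), the transcription factor Sall4 by -0.30 (adjusted p = 0.00441) and the growth factor gene Fgf4 by 0.30 (adjusted p = 0.00568). Of 10 extraembryonic endoderm markers, 1 was higher (Dab2, by 0.77) and 1 lower (Foxa2, -1.05) in LiPS-50 than LiPS-47, with 6 of 10 above the 40th percentile in every line and a summed intensity of 578 to 608 in LiPS-50, against 514 to 568 in LiPS-47, 560 to 585 in LiPS-45 and 526 to 565 in LiPS-57. Of 8 trophoblast markers, 2 were higher and 3 lower in LiPS-50 than LiPS-47 (among them Gata3 at 1.19, Eomes at -1.30 and Krt18 at -0.60), with 7 of 8 above that percentile and a summed intensity of 2631 to 2784 in LiPS-50, against 3804 to 4440 in LiPS-47, 3190 to 3263 in LiPS-45 and 2399 to 2997 in LiPS-57.

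Within a line most of the 10 probe sets shared the culture at one end or both. The second LiPS-50 culture was the lowest of its line for 10 of the 10, and the second LiPS-47 culture and the second LiPS-45 culture were each the highest of theirs for 10 of the 10. In LiPS-50 the third culture was highest for 8 and the first for 2. In LiPS-47 the third culture was lowest for 8, in LiPS-45 the first and the third were lowest for 5 each, and in LiPS-57 the second was highest for 7 and the first lowest for 8. Over all tested probe sets, the second LiPS-50 culture was the lowest of its line for 33.5%, and the second LiPS-45 culture the highest of its line for 31.7%. In LiPS-50 the third was highest for 34.5% and the first for 31.1%. In LiPS-47 the second was highest for 30.5% and the third lowest for 33.1%. In LiPS-45 the first was lowest for 32.5% and the third for 34.4%. In LiPS-57 the second was highest for 36.3% and the first lowest for 36.6%. The fibroblast markers shared some of these ends and not others. Of the markers, 18 of 21 were lowest in the second LiPS-50 culture, 21 of 21 in the third LiPS-47 culture and 18 of 21 in the first LiPS-57 culture, and 20 of 21 were highest in the second LiPS-45 culture. The markers' highest LiPS-50 culture was the first for 12 and the third for 8, and their lowest LiPS-45 culture was the third for 15 and the first for 5. The range of a probe set within a line was nowhere large enough to bring a LiPS-50 culture below a culture of another line. The part of the fibroblast markers' source in this order was not tested.

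**Figure D5:**
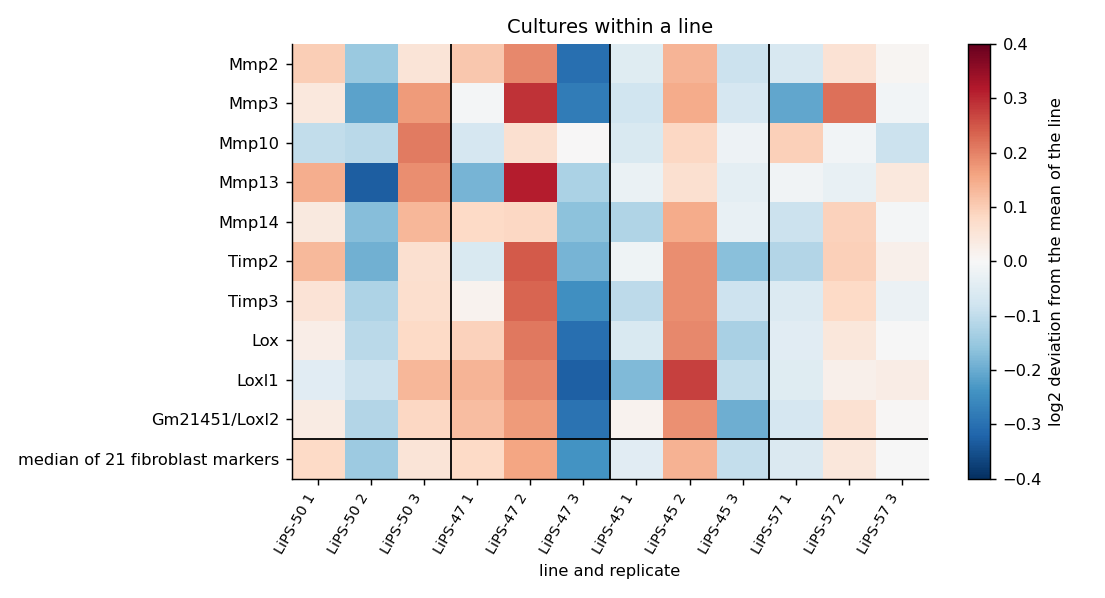
Rows are the 10 probe sets and, at the bottom, the median of 21 fibroblast markers; columns are the 12 cultures by line, and colour gives the log2 deviation of a culture from the mean of its line. Columns are mostly of 1 colour: the second LiPS-50 culture is low (fibroblast median -0.144), the third LiPS-47 culture is low in all rows but Mmp10 (-0.239), and the second LiPS-45 culture is high (0.14).

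The genes whose profile over the 12 arrays was most like the mean profile of the 10 probe sets were S1pr3, a receptor for sphingosine-1-phosphate (Pearson r = 0.993), Thbd, which encodes thrombomodulin (0.993), Cdh11, a cadherin of mesenchymal cells (0.992), Col3a1 (0.992) and App, the amyloid precursor protein gene (0.991). These values describe 12 arrays that fall into LiPS-50 and the rest, and they carry no test. Cdh11 and Col3a1 are also among the 21 fibroblast markers.

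No probe set passed the threshold between any of the other 3 lines. For 9 of the 10 the means ran from LiPS-50 down through LiPS-57 and LiPS-45 to LiPS-47, and for Mmp10 from LiPS-50 down through LiPS-47 and LiPS-45 to LiPS-57; below LiPS-50, neighbours in that order had overlapping cultures or missed the threshold. Between LiPS-47 and LiPS-45, 0 of 10 passed the threshold (limma, 0.0622% of all tested probe sets did), the differences ran from -0.27 to 0.018, and none had an unadjusted p under 0.05. Between LiPS-47 and LiPS-57, 0 of 10 passed (0.159% of all did), the differences ran from -0.42 for Mmp3 to 0.22 for Mmp10, and at an unadjusted p under 0.05 there was 1 higher in LiPS-47, Mmp10, and 2 lower, Mmp3 and Timp2. Between LiPS-45 and LiPS-57, 0 of 10 passed (0.266% of all did), and the differences ran from -0.15 to 0.20. Mmp10 was the 1 probe set with an unadjusted p under 0.05, higher in LiPS-45. Of all 28939 tested probe sets, 1408 were higher and 1177 lower in LiPS-47 than LiPS-45 at an unadjusted limma p under 0.05. The counts were 1172 and 823 for LiPS-47 against LiPS-57, and 1186 and 1132 for LiPS-45 against LiPS-57. The fibroblast markers gave 0 calls in these comparisons, with medians of -0.15 (LiPS-47 minus LiPS-45), -0.14 (LiPS-47 minus LiPS-57) and 0.010 (LiPS-45 minus LiPS-57).

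The study set lines without competence against lines with it, and 0 of the 10 probe sets passed that comparison (limma, with a random block for line; 0% of all tested probe sets passed). The differences, lines without minus lines with competence, had a median of 0.24 log2 units and ran from 0.12 to 0.30. The class without competence holds LiPS-50, the highest line throughout, and LiPS-47, the lowest for 9 of the 10. Mmp3 differed by 0.30 (SE 0.275, limma adjusted p = 0.782), and by 0.178 without LiPS-50 replicate 3 to 0.448 without LiPS-47 replicate 3. Mmp13 differed by 0.16, and by 0.077 without LiPS-50 replicate 3 to 0.25 without LiPS-47 replicate 1. With 1 culture left out, all 10 differences stayed above 0 and none was called. At an unadjusted p under 0.05 there was 1 of the 10, Mmp10 (limma adjusted p = 0.648), beside 1028 higher and 1198 lower among all tested probe sets. The 6 arrays without competence lay apart from the 6 with it for 0 of the 10. With 2 lines in each class, the spread between lines limits what this comparison can show.

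Over the whole series, limma called 4568 probe sets between LiPS-50 and LiPS-47, 4771 between LiPS-50 and LiPS-45 and 4527 between LiPS-50 and LiPS-57. Of these, 53.7%, 49.6% and 52.2% were higher in LiPS-50; with each array centred on its median the shares were 43.7%, 34.8% and 37.8%. Arrays of 1 line correlated at 0.996 to 0.997 over all tested probe sets. The p-values of comparisons between lines reflect how far cultures of the same line varied. Those for competence also reflect the spread between lines of a class, through a correlation of 0.183 shared by all tested probe sets. For a probe set whose lines of a class lie further apart, they take in only part of that spread.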

How the data were processed

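RNA of 12 cultures was amplified and hybridised to Affymetrix whole-transcript arrays, 1 per culture. The deposited table gives linear intensities, 1 per probe set and array. GCOS 1.4 is named per the submitters' processing notes. The sources used here do not give how probes were summarised and normalized. The quartiles of the log2 values, computed from the deposited table, differed between arrays by 0.0954 at most, and no further scaling was applied. Values were turned into log2(value + 1), which understates changes of dim genes. Of 35556 probe sets, 6617 with identifiers below the lowest annotated one were left out and 28939 tested.

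Differences between lines come from limma 3.58.1 in R 4.3.3 (4 line means over 12 arrays, two-sided, Benjamini-Hochberg adjustment, threshold 0.05, 8 residual and 4.06 prior degrees of freedom). Competence used the line as a random block (consensus correlation 0.183). The fits were run on simulated data with known changes in LiPS-50 and no other differences between lines. Most probe sets had no spread between lines there, so this did not test how the competence fit handles such spread. All 10 members were named; from each other list up to 3 called genes with the smallest p in LiPS-50 against LiPS-47 were named, with 5 genes of like profile. Timp4, Plaur, Pou5f1 and Fap were added after their values were seen. The members and lists were chosen with earlier results of these data known. Mmp15, Serpine2, Efemp2, Adamts2 and Fbn1 lacked an own probe set, so they were not analysed here. Symbols came from RefSeq (GRCm38.p6) by gene ID for 19856 of 19938 genes. The number of arrays limits the precision. The alternatives were a replicate block, other scalings, a filter on dim probe sets, a pseudocount of 16, all probe sets, each culture left out, and fits of 2 lines alone.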

Additional observations from a re-analysis of the deposited data

How the results depend on the processing

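The 7 probe sets other than Mmp10, Mmp13 and Mmp14 kept their direction and their call against all 3 lines under all 19 alternatives, with differences of 0.527 to 1.43 and a largest limma adjusted p of 0.0397. Mmp13 and Mmp14 lost calls without single cultures, and also elsewhere. Mmp14 against LiPS-45 had an adjusted p of 0.0540 with the replicate number as a block, 0.0759 with median centring, 0.0530 with all probe sets and 0.0640 in a fit of 2 lines alone, where it had 0.0512 against LiPS-47; against LiPS-57 it passed with quantile normalization (0.0476). Mmp13 against LiPS-57 had 0.0670 with the block, 0.0544 with median centring, 0.0684 with quantile normalization and 0.0660 with all probe sets. The cause was not tested.

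Over all tested probe sets the replicate numbers showed no clear pairing. Deviations of same-numbered cultures correlated at -0.169 to 0.121, those of other numbers at -0.179 to 0.199. For the 10 probe sets, the second culture was the highest of its line for 10 in LiPS-47, 10 in LiPS-45 and 7 in LiPS-57. In LiPS-50 it was the lowest for 10. Whether same-numbered cultures were handled together was not tested. With the replicate block, 9, 8 and 8 of the 10 were called in LiPS-50 against LiPS-47, LiPS-45 and LiPS-57, and 4257, 4506 and 4232 of all tested probe sets. Over all alternatives these members' counts ran from 8 to 9, 7 to 9 and 8 to 10, and every other comparison kept 0.

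Counts over all probe sets moved by more than 1.5 times as follows. Between LiPS-50 and LiPS-45 (4771) leaving out 1 culture gave 3106 to 4802, the lowest without LiPS-45 replicate 3. Between LiPS-47 and LiPS-45 (18) the count was 50 with the filter on dim probe sets, 49 with the pseudocount of 16, 3 with 2 lines alone and 6 to 44 with 1 culture left out. Between LiPS-47 and LiPS-57 (46) it was 25 with the replicate block, 28 with all probe sets, 19 with 2 lines alone and 23 to 61 with 1 culture left out. Between LiPS-45 and LiPS-57 (77) it was 49 with 2 lines alone and 41 to 70 with 1 culture left out. The fit of 2 lines alone could not apply to competence.

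Differences near 0, none called, changed sign when 1 culture was left out. Between LiPS-47 and LiPS-45 they ran from -0.156 to 0.0893 for Gm21451/Loxl2, -0.0146 to 0.0588 for Mmp10 and -0.0974 to 0.0436 for Mmp14. Between LiPS-47 and LiPS-57 Gm21451/Loxl2 ran from -0.162 to 0.0708. Between LiPS-45 and LiPS-57 they ran from -0.109 to 0.0789 for Gm21451/Loxl2, -0.0978 to 0.0637 for Lox, -0.165 to 0.0599 for Loxl1, -0.111 to 0.00134 for Mmp2, -0.166 to 0.00961 for Timp2 and -0.108 to 0.0379 for Timp3; Lox was 0.000629 with median centring.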
